A study of Mus musculus with 6 samples.

Results

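The 36 lymphoid lineage genes described here are genes of lymphoid priming and of the B cell, T cell and natural killer (NK) cell lineages. They were taken by name from a list and found by NCBI gene ID among the 27179 genes of the deposited RNA-seq table. All 36 were in the table, and 21 of them reached a log2 CPM (reads scaled to library size, log2 scale) of 0 or more, which is 1 CPM, in at least 3 of 6 libraries. RNA was sequenced from sorted LT-HSC, the long-term stem cells of the bone marrow from which all blood lineages can be rebuilt, of adult C57BL/6 mice aged 8 to 12 weeks. The knockout group, Cko (Prdm16-Mx1-Cko/Cko; Tg/+), and the control group, WT (Prdm16-Mx1-Cko/Cko; +/+), were both homozygous for a conditional allele of Prdm16, a zinc-finger transcriptional regulator of stem cells. The label WT therefore does not stand for unmodified Prdm16 alleles. The labels give Tg/+ for Cko and +/+ for WT, read here as Mx1-Cre carried by Cko mice alone, although the design text writes the control as Mx1-Cre+/+. Every mouse, Cko or WT, was given pIpC 5 times to induce the Mx1 promoter, which responds to interferon, and marrow was taken 5 weeks later. The Mx1 promoter is not restricted to stem cells, and on that reading the WT mice had no Cre, so effects of Cre itself and of the Prdm16 deletion cannot be told apart. For each genotype the marrow of 5 mice was combined, and cells that were lineage-negative, positive for Sca-1, c-Kit and CD150, and negative for CD48 were sorted into 3 technical replicates. Each group is therefore 1 pool in 3 portions, and p-values measure the spread between portions, not between animals.

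Lymphocytes descend from stem cells through progenitors that first transcribe a small set of lymphoid genes at low level while they keep other fates open, a state called lymphoid priming. In the B lineage the E protein Tcf3 acts upstream of Ebf1, which in turn acts upstream of Pax5, and these factors drive the genes of the pre-B cell receptor. Stem cells are known to transcribe several of the broadly used factors, such as Ikzf1 and Bcl11a. Recombination enzymes are grouped here with the genes of lymphoid priming and are not taken as marks of committed cells. Proteins such as CD3, CD4 and CD8 are commonly used to recognise and remove lineage-positive cells in such a sort.

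Promoters of 4 B lineage and cytokine genes described below are given with the E-boxes in capitals. The E-box is the sequence that E proteins such as Tcf3 and Tcf4 bind. The E-box was searched as CANCTG on both strands, in windows from 250 bases before to 50 bases after the start of each gene (RefSeq, GRCm38.p6), and each sequence runs 5′ to 3′ along the gene's strand. Cd79a lies on the plus strand (chr7:24897247-24897546), Igll1 and Vpreb1 lie on the minus strand of 1 chromosome (chr16:16863936-16864235 and chr16:16869206-16869505), and Ltb lies on the plus strand (chr17:35194257-35194556).
Cd79a: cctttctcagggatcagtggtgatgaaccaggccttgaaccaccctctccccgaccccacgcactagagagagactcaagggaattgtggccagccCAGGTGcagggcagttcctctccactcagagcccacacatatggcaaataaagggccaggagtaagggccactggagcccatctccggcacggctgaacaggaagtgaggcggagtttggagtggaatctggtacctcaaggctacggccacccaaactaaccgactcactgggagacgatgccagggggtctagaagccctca
Igll1: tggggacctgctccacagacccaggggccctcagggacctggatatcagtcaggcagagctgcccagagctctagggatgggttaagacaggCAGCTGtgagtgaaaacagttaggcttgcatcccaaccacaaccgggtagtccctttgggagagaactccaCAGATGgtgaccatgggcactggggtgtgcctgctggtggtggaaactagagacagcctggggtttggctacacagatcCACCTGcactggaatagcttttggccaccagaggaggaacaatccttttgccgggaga
Vpreb1: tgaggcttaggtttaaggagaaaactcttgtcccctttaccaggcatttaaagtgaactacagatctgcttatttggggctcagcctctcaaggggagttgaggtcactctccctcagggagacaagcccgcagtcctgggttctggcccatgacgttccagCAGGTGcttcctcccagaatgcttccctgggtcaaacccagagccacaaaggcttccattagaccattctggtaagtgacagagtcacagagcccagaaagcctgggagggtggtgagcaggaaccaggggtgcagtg
Ltb: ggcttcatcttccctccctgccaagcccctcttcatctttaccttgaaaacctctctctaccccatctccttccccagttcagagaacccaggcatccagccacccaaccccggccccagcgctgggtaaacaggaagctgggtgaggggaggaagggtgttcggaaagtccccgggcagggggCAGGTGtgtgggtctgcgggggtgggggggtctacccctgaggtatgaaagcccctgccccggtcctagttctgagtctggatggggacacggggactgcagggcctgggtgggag
The E-box began at base -154 in Cd79a, at bases -158, -87 and -8 in Igll1, at base -88 in Vpreb1 and at base -66 in Ltb, counted from the start of the gene at 0. The promoter table held 40 promoters for 27 of the 36 genes. An E-box was present in 67.5% of those 40 promoters, against 51.4% of all 32851 promoters. By gene, 21 of the 27 had an E-box, and Dntt, Ebf1, Pax5, Tcf3, Ikzf1 and Bcl11a had none. Some of the 40 windows overlap each other, as for Lef1 and Satb1. Cd52, Ly6d and Cd79b were among the genes without a promoter sequence. The core of the Ebf1 motif, CCCNNGGG, was present in 12.5% of the promoters of the lymphoid genes and in 13.7% of all promoters. The core of the Ikaros motif, TGGGAA, was present in 37.5% of the promoters of the lymphoid genes and in 25.6% of all promoters. The TCF/LEF core, CTTTGA, was present in 10% of the promoters of the lymphoid genes and in 16% of all promoters, and the ETS core, CCGGAAG, in 5% and 8.86% of the same sets. These matches describe letters in a window and do not show that a factor binds there.

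The 3 Cko libraries held 36810194 to 43725862 reads and the 3 WT libraries 36747729 to 43743795. Prdm16 had 323, 388 and 643 reads in the Cko libraries and 1630, 1860 and 1381 in the WT libraries. Its level was 10.8 ± 3.37 CPM in Cko and 40.8 ± 9.40 CPM in WT (SD, n = 3 each), and the log2 fold change was -1.93 (SE 0.27, limma adjusted p = 0.00829). Over 16 alternative settings its adjusted p ran from 0.00247 to 0.0967. Of 16 LT-HSC markers all were tested and 0 were called by limma, where 0.407% of all tested genes were called higher and 0.292% lower. At an unadjusted p under 0.05 in limma, 4 were higher and 2 lower, where 5.58% and 4.72% of all tested genes were. The summed level of these markers was 3998 to 4315 CPM in Cko and 4022 to 4278 CPM in WT. Of 18 neutrophil markers 15 were tested and 11 were called higher in Cko, where 0.407% of all tested genes were. Their summed levels were 1159 to 1363 CPM in Cko and 310 to 327 CPM in WT. Most of the WT sum came from Prtn3, which averaged 211 ± 11.8 CPM in Cko and 209 ± 7.07 CPM in WT. Ly6g, untested, averaged 0.456 CPM in Cko and 0.49 CPM in WT. Of 23 plasma and B cell markers, 13 had 0 reads in every WT library and 3 had 0 reads in every Cko library. Of the 13 tested, 2 were called higher, where 0.407% of all tested genes were. The list summed to 504 to 537 CPM in Cko and 189 to 231 CPM in WT. In WT most of the sum came from Xbp1, a gene of many secretory cells. The immunoglobulin kappa constant gene Igkc had 4301, 5335 and 4995 reads in the Cko libraries and 0 in each WT library. The Cko libraries thus stood apart from the WT libraries in many, but not all, of the listed transcripts of neutrophils and of plasma and B cells. The part of such cells in the results below was not tested.

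Most lymphoid genes were either steady and well expressed or close to absent. At least 20 CPM was measured in every library for 10 of the 36 genes: Cd27, Ltb, Ikzf1, Ikzf2, Tcf3, Tcf4, Bcl11a, Foxp1, Cd79b and Nkg7. A further 11 passed the presence threshold at lower or uneven levels, and 15 did not pass it. Of those 15, 3 genes (Cd3e, Cd8a and Gzmb) had 0 reads in all 6 libraries, which allows 3 reads per library, or 0.0748 CPM as the mean over the WT libraries. The presence threshold was met in all 3 libraries of the group by 17 genes in Cko and by 13 genes in WT. Just inside the threshold, 6 genes reached it in exactly 3 libraries (Il7r, Ly6d, Btla, Cd79a, Blnk and Cd4), and just outside, 3 genes reached it in exactly 2 (Dntt, Igll1 and Cd3g). Ly6d and Cd79a passed through the Cko libraries alone, so that their difference was built into passing.

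**Figure D1:**
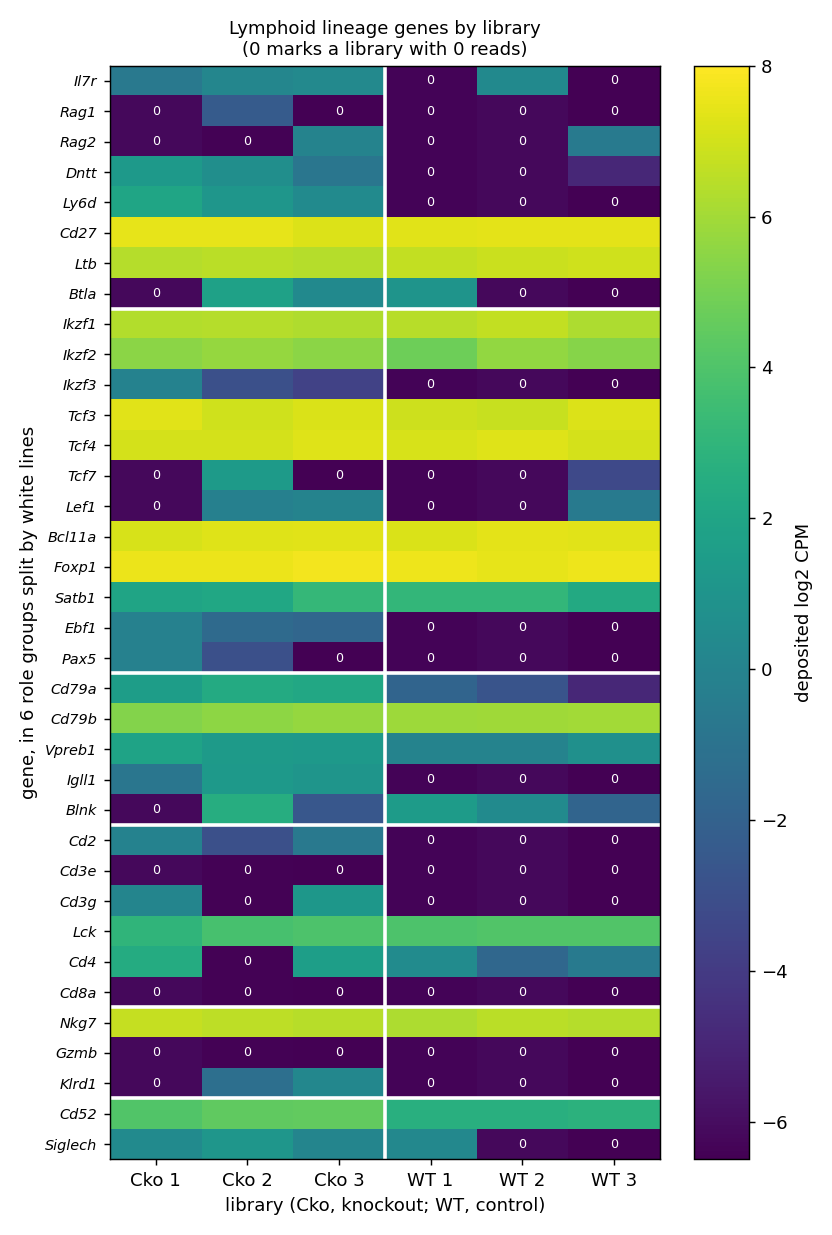
Deposited log2 CPM of the 36 lymphoid genes (vertical axis, in 6 role groups split by white lines) in each of the 3 Cko and 3 WT libraries (horizontal axis), with 0 printed where a library held 0 reads. The bright bands are the 10 genes at 20 CPM or more in every library, and 9 genes have reads in Cko and 0 in every WT library.

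Among the 21 tested genes, limma called 1 higher in Cko (Cd52), where 0.407% of all 13018 tested genes were called higher. It called 0 lower, where 0.292% of all tested genes were called lower. At an unadjusted p under 0.05, 3 lymphoid genes were higher (Cd52, Cd79a and Ly6d) and 2 were lower (Ltb and Cd79b), where 5.58% of all tested genes were higher and 4.72% were lower by that rule. Limma's voom on the recovered reads also called 0 lymphoid genes lower. The log2 fold changes were positive for 11 and negative for 10 of the 21 genes, with a median of 0.07, against 0.003 over all tested genes. The 2 groups did not overlap for 4 genes that were higher in Cko and 3 that were lower, where 8.52% of all tested genes did not overlap with Cko higher and 8.01% with Cko lower.

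**Figure D2:**
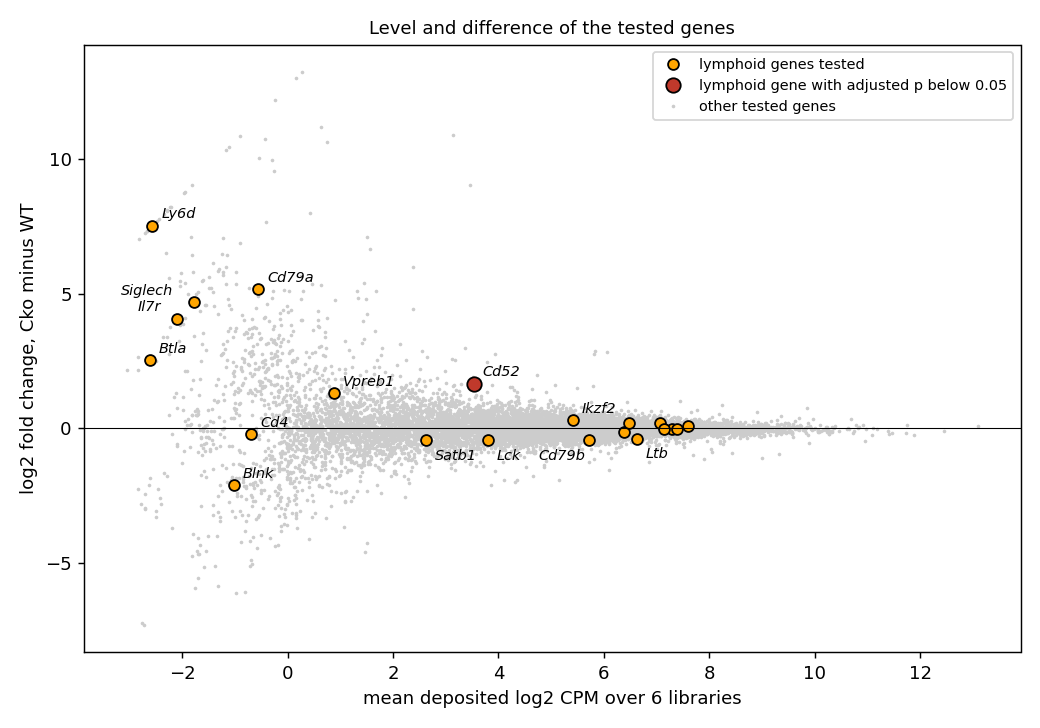
Mean deposited log2 CPM over the 6 libraries (horizontal axis) against the log2 fold change, Cko minus WT (vertical axis), for the 13018 tested genes, with the 21 lymphoid genes as orange points and Cd52, the 1 with adjusted p below 0.05, in red. The lymphoid genes at high level lie near 0 on the vertical axis, and those with large fold changes lie at the low end of the horizontal axis, where fold changes depend on the 0.5 reads added to each count.

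Per kilobase of exon, Nkg7, Cd27 and Ltb had the highest mean levels of the lymphoid genes in both groups. In Cko the order of the mean levels was Nkg7 at 109 CPM per kilobase, Cd27 at 107, Ltb at 73.6, Tcf3 at 45.3 and Cd52 at 40.4. In WT the order was Cd27 at 109, Ltb at 95.8, Nkg7 at 93.8, Cd79b at 42.6 and Tcf3 at 39.3, with Cd52 at 12.6 after Foxp1, Bcl11a and Ikzf1. Foxp1 stood at 25.4 CPM per kilobase in Cko and 24.1 in WT, and Bcl11a at 20.3 in Cko and 20.8 in WT.

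Cd52 (gene ID 23833, chr4:134093538-134095073, mm10) encodes a small glycoprotein on the surface of mature lymphocytes that is also found on monocytes and some granulocytes. It had 622, 960 and 1009 reads in the Cko libraries and 257, 227 and 303 in the WT libraries, or 16.8, 22.4 and 23.1 CPM in Cko and 6.36, 6.16 and 6.95 CPM in WT. Every Cko library lay above every WT library. The mean was 20.8 ± 3.43 CPM in Cko and 6.49 ± 0.41 CPM in WT (SD, n = 3 each), and the log2 fold change was 1.66 (SE 0.26, 95% interval 1.09 to 2.24, limma adjusted p = 0.0151), which is 3.17-fold. The call was lost without Cko replicate 2 (limma adjusted p = 0.123), Cko replicate 3 (0.136) or WT replicate 3 (0.0517), without the filter on low values (0.0566) and with a replicate block (0.0634). Over 16 alternative settings the adjusted p ran from 0.0112 to 0.136 and the log2 fold change from 1.53 to 1.81. In a bulk sample, more RNA per cell and more cells of a type that express the gene cannot be told apart. Neutrophil markers also summed higher in the Cko libraries, at 1159, 1229 and 1363 CPM in Cko and 319, 327 and 310 CPM in WT. B cell transcripts were mixed. Of 13 tested plasma and B cell markers, 9 were higher and 0 lower in every Cko library, where 8.52% and 8.01% of all tested genes were. Of those 13, 5 passed the presence threshold through the Cko libraries alone. Outside that list, the B cell genes Cd79b, Cd24a and Cd74 were lower in every Cko library. Their means were 45.6, 212 and 254 CPM in Cko and 61, 292 and 293 CPM in WT. Also outside it, Cd79a, Vpreb1, Igll1, Ebf1, Spib and Cd37 were higher in every Cko library. Igll1, Ebf1 and Spib had 0 reads in each WT library.

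**Figure D3:**
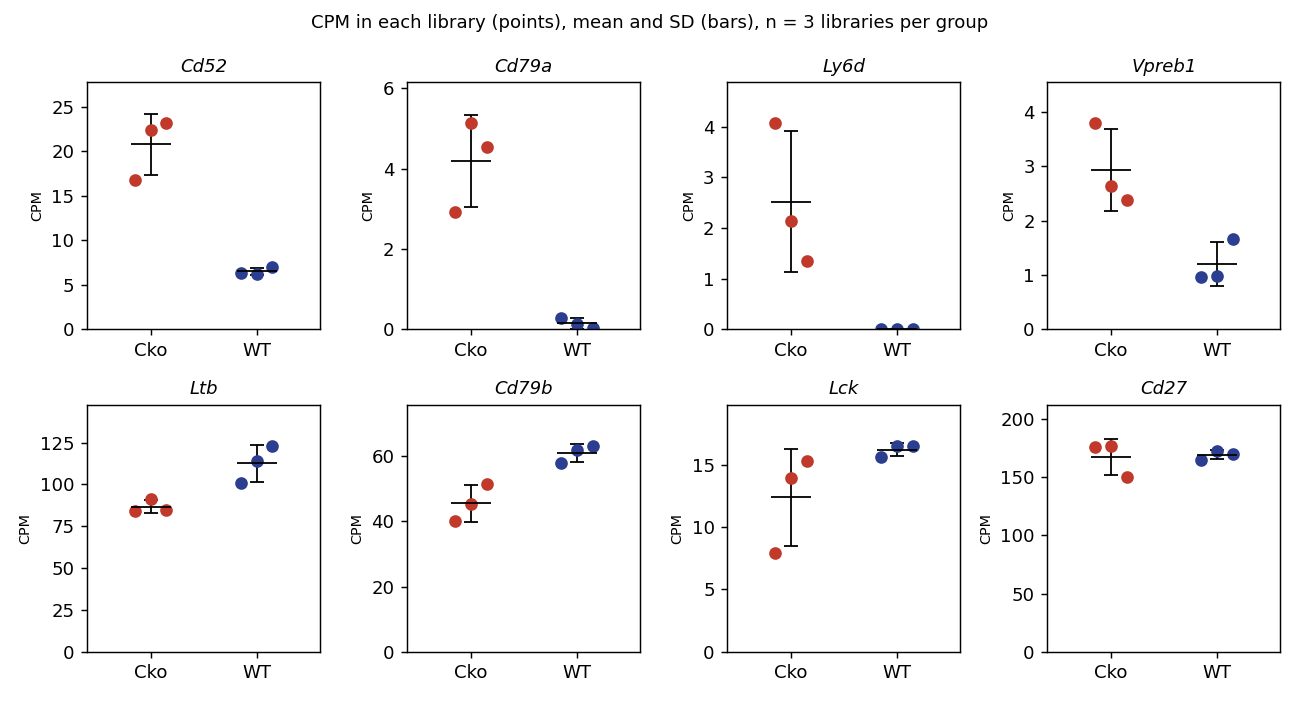
CPM (vertical axis, from 0) of 8 lymphoid genes in each library (points), with the group mean and SD (bars, n = 3 libraries per group), Cko in red and WT in blue. Cd52, Cd79a, Ly6d and Vpreb1 are higher in every Cko library than in any WT library, Ltb, Cd79b and Lck are lower in every Cko library, and Cd27 overlaps.

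Of the genes of lymphoid priming, Cd27 and Ltb were abundant. Cd27 encodes a costimulatory receptor of the tumour necrosis factor receptor family, and it had 176, 177 and 150 CPM in the Cko libraries and 165, 173 and 170 CPM in the WT libraries. Its groups overlapped, with means of 167 ± 15.5 CPM in Cko and 169 ± 3.76 CPM in WT and a 95% interval of the log2 fold change from -0.24 to 0.20. Ltb (gene ID 16994, chr17:35194507-35196305) encodes lymphotoxin beta, a membrane-bound cytokine of the tumour necrosis factor family. It had 84.1, 91.2 and 84.7 CPM in the Cko libraries and 101, 114 and 123 CPM in the WT libraries. Every Cko value lay below every WT value, with means of 86.7 ± 3.92 CPM in Cko and 113 ± 10.9 CPM in WT (SD, n = 3 each). The log2 fold change was -0.38 (SE 0.12, 95% interval -0.63 to -0.12), which did not pass limma's adjusted p (0.281; 0.213 to 0.533 over the alternatives). Ltb overlaps the microRNA gene Mir6973a and Cd27 overlaps E130112N10Rik, and the sources used here do not state whether reads were counted by strand.

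The remaining priming genes were near the limit of detection and uneven between portions. Il7r, the receptor for interleukin 7, on which lymphoid progenitors depend, had 23, 48 and 54 reads in Cko and 0, 48 and 0 in WT. Its log2 fold change of 4.08 (SE 2.38, limma adjusted p = 0.590) had a 95% interval from -1.23 to 9.38, and the groups overlapped. Btla, an inhibitory receptor of lymphocytes, had 0, 148 and 56 reads in Cko and 81, 0 and 0 in WT. Among all 36 genes, 11 (33.3% of the 33 with a read) had 0 reads in 1 library and 30 or more in another library of the same group, where 9.5% of all 18030 genes with a read did so. Such all-or-none counts between portions of 1 pool bear on every gene at this level.

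Ly6d, a surface marker of B-biased lymphoid progenitors, had 150, 92 and 59 reads in Cko and 0 in each WT library. Against a floor of 3 reads per WT library its mean was at least 33-fold higher in Cko. Its fitted log2 fold change of 7.52 (SE 2.31) rests on the 0.5 reads added to each count and did not pass limma's adjusted p (0.281; 0.00213 to 0.646 over the alternatives, the lowest without the mean-variance trend). Dntt, the template-independent polymerase that adds bases at antigen receptor joints, had 89, 68 and 25 reads in Cko and 0, 0 and 1 in WT. The ratio of its summed reads, scaled for depth, was 178 with a 95% counting interval from 31.6 to 7070. The recombinase genes Rag1 and Rag2 showed no such pattern. Rag1 had 0, 8 and 0 reads in Cko and 0 in each WT library, and Rag2 had 0, 0 and 43 reads in Cko and 0, 0 and 30 in WT. Rag2 overlaps the gene Iftap. Transcripts of Ly6d and Dntt were thus counted in every Cko library while Rag1 and Rag2 were each counted in 1.

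**Figure D4:**
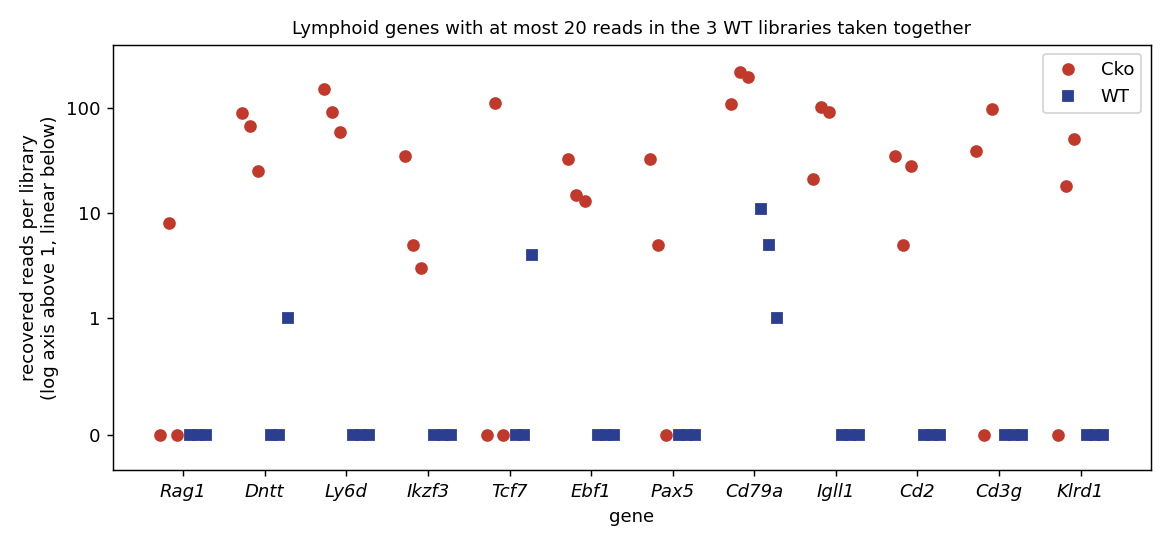
Recovered reads per library (vertical axis, logarithmic above 1 and linear below) for the 12 lymphoid genes with at most 20 reads in the 3 WT libraries together and at least 1 read in Cko, Cko as red circles left of WT as blue squares. Dntt, Ly6d, Ikzf3, Ebf1, Cd79a, Igll1 and Cd2 have reads in every Cko library, and 9 of the 12 have 0 reads in each WT library.

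The transcription factors divided into a steady group and a near-absent group, and limma called 0 of the 7 tested factors (0 also at an unadjusted p under 0.05). Ikzf1, which encodes Ikaros, a zinc-finger factor needed for lymphoid development, averaged 79.2 ± 2.75 CPM in Cko and 88.4 ± 13.0 CPM in WT. Its relative Ikzf2, Helios, had 45.1, 52.9 and 44.0 CPM in Cko and 27.4, 50.4 and 40.5 CPM in WT. Those groups overlapped, and the log2 fold change of Ikzf2 was 0.30 (SE 0.22, limma adjusted p = 0.667, 95% interval -0.19 to 0.79). Tcf3, the E protein at the head of the B cell programme, had 162, 127 and 147 CPM in Cko and 118, 110 and 151 CPM in WT. Its groups overlapped as well, with a log2 fold change of 0.21 (SE 0.14, limma adjusted p = 0.641, 95% interval -0.11 to 0.53). Tcf4, the related E protein of plasmacytoid dendritic cells, averaged 141 ± 13.1 CPM in Cko and 143 ± 11.5 CPM in WT. Bcl11a, a repressor needed for B cell development, averaged 154 ± 10.8 CPM in Cko and 158 ± 11.8 CPM in WT. Foxp1, a forkhead factor of early B cell development, averaged 199 ± 13.4 CPM in Cko and 189 ± 11.9 CPM in WT (SD, n = 3 each throughout). The 95% intervals of the log2 fold change were -0.45 to 0.15 for Ikzf1, -0.27 to 0.22 for Tcf4, -0.26 to 0.19 for Bcl11a and -0.13 to 0.28 for Foxp1. These intervals describe the portions of 2 pools and not animals. Satb1, a chromatin organiser of T cell development, had 143, 189 and 389 reads in Cko and 345, 315 and 219 in WT, so its groups overlapped with a 95% interval from -1.38 to 0.53.

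**Figure D5:**
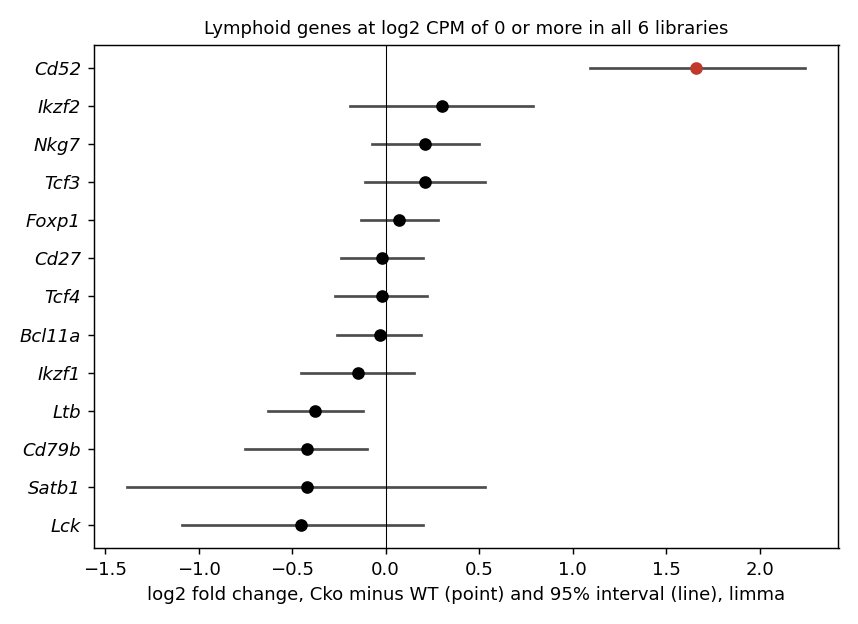
Log2 fold change, Cko minus WT (points), with its 95% interval from limma (lines, horizontal axis) for the 13 lymphoid genes at 1 CPM or more in all 6 libraries (vertical axis), Cd52 in red. The intervals of Cd52, Ltb and Cd79b leave out 0, and only Cd52 passed the threshold after adjustment over all 13018 genes.

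Committed B cell factors were counted in Cko libraries and in none of the WT libraries. Ebf1, the pioneer factor of the B lineage, had 33, 15 and 13 reads in Cko and 0 in each WT library, at least 6.8-fold higher. Pax5, which fixes B cell identity, had 33, 5 and 0 reads in Cko and 0 in each WT library. Ikzf3, Aiolos, an Ikaros relative of later lymphocytes, had 35, 5 and 3 reads in Cko and 0 in each WT library. Each of these genes had its highest count in Cko replicate 1. The T cell factors were less even. Tcf7, which encodes TCF1, had 0, 111 and 0 reads in Cko and 0, 0 and 4 in WT, and Lef1 had 0, 37 and 43 reads in Cko and 0, 0 and 29 in WT. Tcf7 overlaps Skp1 in the annotation.

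Of the 5 genes of the B cell and pre-B cell receptors 4 were tested, and limma called 0 of them (1 higher and 1 lower at an unadjusted p under 0.05). Cd79a (gene ID 12518, chr7:24897497-24901858) and Cd79b (gene ID 15985, chr11:106311341-106314562) encode the paired signalling chains of the B cell receptor. Cd79a had 108, 220 and 198 reads in Cko and 11, 5 and 1 in WT, or 4.19 ± 1.14 CPM in Cko and 0.144 ± 0.125 CPM in WT (SD, n = 3 each). The ratio of its summed reads was 30.3 with a 95% counting interval from 18.7 to 52.4. The fitted log2 fold change of 5.17 (SE 1.19) did not pass limma's adjusted p (0.115; 0.0146 to 0.447 over the alternatives). With log2(CPM + 1) in place of the deposited scale the change was 2.16 with an adjusted p of 0.0146 in limma, and with log2(CPM + 0.1) it was 4.24 with an adjusted p of 0.0448. Cd79b had 40.0, 45.4 and 51.4 CPM in Cko and 57.8, 62.0 and 63.2 CPM in WT. Its means were 45.6 ± 5.72 CPM in Cko and 61.0 ± 2.86 CPM in WT. Every Cko value of Cd79b lay below every WT value, with a log2 fold change of -0.42 (SE 0.15, 95% interval -0.75 to -0.10) and a limma adjusted p of 0.334 (0.299 to 0.617 over the alternatives). Per kilobase of exon, Cd79b stood at 31.9 CPM in Cko and 42.6 CPM in WT.

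Vpreb1 and Igll1 encode the 2 parts of the surrogate light chain, which takes the place of the light chain in the pre-B cell receptor, and their promoters are printed above. Vpreb1 had 140, 113 and 104 reads in Cko and 39, 36 and 73 in WT, with means of 2.93 ± 0.75 CPM in Cko and 1.21 ± 0.406 CPM in WT. The groups did not overlap, and the log2 fold change was 1.29 (SE 0.63, limma adjusted p = 0.515, 95% interval -0.11 to 2.70). Vpreb2, a near-identical copy of Vpreb1, was listed with 0, 1 and 0 reads in Cko and 0 in each WT library, and reads of the pair may have been assigned unevenly or dropped. Igll1 had 21, 102 and 92 reads in Cko and 0 in each WT library, at least 22-fold higher. Blnk, the adaptor that links the B cell receptor to its downstream enzymes, had 0, 248 and 7 reads in Cko and 110, 50 and 12 in WT, and its groups overlapped.

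Of the T cell surface and signalling genes among the 36, Lck was the only one at 1 CPM or more in all 6 libraries. Lck encodes the kinase that starts T cell receptor signalling, and it had 7.95, 13.9 and 15.3 CPM in Cko and 15.6, 16.5 and 16.5 CPM in WT. The groups did not overlap, but the means of 12.4 ± 3.88 CPM in Cko and 16.2 ± 0.514 CPM in WT (SD, n = 3 each) were set apart mostly by Cko replicate 1. Its log2 fold change of -0.45 (SE 0.29, 95% interval -1.09 to 0.20) did not pass limma's adjusted p (0.625). Without Cko replicate 1 the log2 fold change was -0.16 (limma adjusted p = 0.896; 0.569 to 0.896 over the alternatives). Cd2, an adhesion molecule of lymphocytes, had 35, 5 and 28 reads in Cko and 0 in each WT library, at least 7.5-fold higher by its mean. Cd3g, a chain of the T cell receptor complex, had 39, 0 and 98 reads in Cko and 0 in each WT library, while its partner chain Cd3e had 0 reads in all 6 libraries. Cd4, the coreceptor of helper T cells, had 199, 0 and 132 reads in Cko and 56, 11 and 29 in WT, and its groups overlapped. The coreceptor Cd8a of cytotoxic T cells had 0 reads throughout. Of 20 T and NK cell markers, 7 of which are among the 36 genes, 7 were at 0 in all 6 libraries and 12 at 0 in every WT library. Their summed level was 101 to 130 CPM in Cko and 81.7 to 114 CPM in WT, most of it from Nkg7.

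Nkg7, a membrane protein of cytotoxic granules, was the one NK gene at a high level. It had 105, 94.5 and 87.8 CPM in Cko and 73.7, 89.7 and 84.5 CPM in WT. The groups overlapped, and the log2 fold change was 0.21 (SE 0.13, limma adjusted p = 0.596, 95% interval -0.07 to 0.50). The other NK genes among the 36 were at or near 0. Klrd1, the receptor chain CD94, had 0, 18 and 51 reads in Cko and 0 in each WT library. Gzmb, the protease granzyme B, had 0 reads in all 6. Siglech, a surface lectin of plasmacytoid dendritic cells, had 50, 93 and 46 reads in Cko and 49, 0 and 0 in WT, a log2 fold change of 4.67 (SE 2.19, limma adjusted p = 0.497) with overlapping groups. The 14 markers of plasmacytoid dendritic cells summed to 509 to 534 CPM in Cko and 490 to 506 CPM in WT. Most of the sum came from Ptprs, Tcf4 and Bst2, with means of 160, 141 and 106 CPM in Cko. In WT their means were 143, 143 and 97.7 CPM, so the sum says little of the markers at low level. Of the 14 markers, 3 are among the 36 genes. Limma tested 10 of the 14 and called 1 higher (Irf8) and 0 lower, where 0.407% and 0.292% of all tested genes were called. The groups did not overlap for 4 with Cko higher and 0 with Cko lower, where 8.52% and 8.01% of all tested genes did not. Of the 10, 2 (Spib and Ly6d) passed the presence threshold through the Cko libraries alone.

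Below the presence threshold the direction was one-sided among the listed genes. The list was chosen with earlier results of these data known, so the shares below describe it and are not an independent test. Of the 12 untested lymphoid genes with a read, 5 had every Cko library above every WT library (Dntt, Ikzf3, Ebf1, Igll1 and Cd2) and 0 had the reverse, where 3.97% of 5012 untested genes with a read lay higher in Cko and 2.69% lower. Reads in Cko and 0 in every WT library were found for 9 lymphoid genes (27.3% of the 33 with a read), where 6.27% of all 18030 genes with a read had 0 in every WT library. The reverse, 0 in every Cko library with reads in WT, was found for 0 lymphoid genes, where 4.52% of genes with a read had 0 in every Cko library. Reads in all 3 Cko libraries and 0 in all 3 WT libraries were found for Ly6d, Ikzf3, Ebf1, Igll1 and Cd2 (15.2% of the 33), where 0.56% of genes with a read did so. When these genes were fitted without the filter on low values, limma called 0 lymphoid genes, with adjusted p of 0.242 for Ly6d, 0.253 for Ebf1, 0.253 for Igll1, 0.329 for Cd2, 0.389 for Dntt and 0.454 for Ikzf3. The 9 genes with 0 in WT include B, T and NK genes. Of the 23 plasma and B cell markers, 10 likewise had reads in Cko and 0 in every WT library, and 10 had reads in WT.

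A further 61 lymphoid genes, outside the 36 and listed by pathway, were examined next. Of these, 42 were tested, and limma called 1 higher (Irf8) and 0 lower, where 0.407% and 0.292% of all tested genes were called. At an unadjusted p under 0.05 in limma, 13 were higher and 4 lower, where 5.58% and 4.72% of all tested genes were. Their median log2 fold change was 0.12, against 0.003 over all tested genes. Irf8, a factor of dendritic cells, monocytes and B cells, had 32.8, 20.7 and 14.0 CPM in Cko and 5.59, 2.03 and 3.88 CPM in WT. All Cko libraries lay above all WT libraries, and the log2 fold change of Irf8 was 2.58 (SE 0.44, limma adjusted p = 0.0315; 0.0101 to 0.198 over the alternatives). The call of Irf8 was lost under 8 of 16 alternatives, among them leaving out any 1 of the Cko libraries (0.16, 0.151 and 0.0586) or WT replicate 2 or 3 (0.0535 and 0.0874). Flt3, the cytokine receptor of lymphoid-primed progenitors, had 47.8, 58.9 and 45.6 CPM in Cko and 29.3, 27.5 and 32.9 CPM in WT. The groups of Flt3 did not overlap, with a log2 fold change of 0.76 (SE 0.17) and a limma adjusted p of 0.0985. Cd24a, a surface glycoprotein of early B cells and of red cell precursors, had 213, 214 and 208 CPM in Cko and 264, 326 and 286 CPM in WT, a log2 fold change of -0.46 (SE 0.09, limma adjusted p = 0.0651; 0.0306 to 0.333 over the alternatives, 4 of which called it). Cnn3, a calponin, averaged 10.8 ± 3.00 CPM in Cko and 3.10 ± 1.08 CPM in WT, a log2 fold change of 1.82 (SE 0.40, limma adjusted p = 0.104). Spib, an ETS factor of B cells and plasmacytoid dendritic cells, had 156, 108 and 209 reads in Cko and 0 in each WT library, at least 51-fold higher (limma adjusted p = 0.146; 0.000208 to 0.533 over the alternatives, 4 of which called it). For Spib every Cko library lay above the floor, as for Ebf1, Igll1 and Ly6d among the 36 genes.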

How the data were processed

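RNA-seq libraries of sorted LT-HSC (3 Cko, 3 WT) were analysed from 1 deposited table of log2 CPM, indexed by NCBI gene ID. The authors, per the submitters' processing notes, used FastQC, HISAT2, featureCounts, limma and mm10. For versions, strand and multi-mapping settings, the sources used here give nothing. As deposited, the log2 values hold 0.5 added reads over an effective library size. Undoing this gave whole reads for 100.0% of values within 0.01. CPM in the text are those reads scaled by the same size. Counting intervals and floors (3 reads per library) cover counting error only. A fold given as at least a value is the mean Cko CPM over the mean WT floor, without the error of the Cko mean.

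Symbols and coordinates came from RefSeq GRCm38.p6, the assembly that mm10 names (25275 IDs matched, 1904 not). Genes at log2 CPM of 0 or more in at least 3 of 6 libraries (13018) were fitted in R 4.3.3 by limma 3.58.1 (lmFit, eBayes with trend, no block), with Benjamini-Hochberg adjustment over all of them and a threshold of 0.05. The fit was tested on simulated data. Exon lengths came from GENCODE vM21. Figures used matplotlib 3.10.9 in Python 3.11.15. Full statistics were given for called lymphoid genes and the 12 tested ones of smallest p, and, of the other lymphoid genes, for the called one and those of the 6 of smallest p, of which 1 is not reported here. The members and lists were chosen with earlier results of these data known.

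Alternatives were a replicate block, no trend, robust eBayes, quantile normalization, median centring, a 5 CPM filter, no filter, log2(CPM + 1), log2(CPM + 0.1), voom on the recovered reads, and leaving out each library in turn.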

Additional observations from a re-analysis of the deposited data

How the results depend on the processing

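The 53 genes called higher and 38 called lower in Cko became 19 and 14 without the filter and 105 and 59 with log2(CPM + 1). The lower count was 15 without the trend, and the higher count was then 49. Leaving out each library in turn gave 20 to 64 higher and 19 to 28 lower. Lymphoid genes called higher numbered 1 by the fit reported, 0 without the filter, 2 without the trend (Cd52 and Ly6d), 2 with log2(CPM + 1), 2 with log2(CPM + 0.1) (Cd52 and Cd79a in both) and 0 to 1 on leaving out a library. Those called lower numbered 0 under every setting run. Without 1 library, the calls rest on the remaining portions of the same 2 pools.

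With the replicate number as a block, 44 genes were higher and 23 lower and 0 lymphoid genes were called. Deviations of libraries with the same number correlated at -0.01, -0.021 and 0.02, so the numbers do not pair the libraries.

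The 21 lymphoid genes present became 13 when all 6 libraries had to reach the threshold and 13 at 5 CPM, and were 26 with 1 library enough. Of 328 fold changes of lymphoid genes over 16 alternatives, 309 kept direction and side of the threshold, 5 lost the call (all Cd52), 3 gained it and 11 changed sign. The sign changed for Cd4 at 0.19 with quantile normalization, 0.77 with log2(CPM + 1), 0.64 with log2(CPM + 0.1) and -1.82 to 2.60 on leaving out a library. On leaving out a library it also changed for Tcf4 (-0.10 to 0.04), Bcl11a (-0.09 to 0.02) and Cd27 (-0.06 to 0.06). The cause was not tested. With 3 reads per library as the floor, 0 reads in every WT library allows a mean level of up to 0.0748 CPM.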
